A study of Mus musculus with 50 samples.

Results

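The genes described here build, tune and regulate the thick filament of the heart muscle cell: 10 genes picked by symbol from a table of 35717. They are the heavy chains Myh6, Myh7 and Myh7b, the microRNA row Mir208b, the light chains Myl2 and Myl3, the kinases Mylk3 and Mylk4, and the myosin-binding proteins Mybpc2 and Mybpc3. Each symbol matched 1 row, and all 10 were among the 11628 genes tested, which had at least 1 FPKM (fragments per kilobase of transcript, relative to library depth) in at least 5 libraries. Left-ventricle RNA came from 50 C57BL/6J mice at 40 weeks of age. The 4 groups crossed genotype and infusion: 11 wild-type (WT) littermates with saline, 14 WT with angiotensin II (Ang II, a hormone that raises blood pressure), 12 LARP6 transgenic mice (Tg) with saline and 13 Tg with Ang II. LARP6 is an RNA-binding protein, overexpressed here in cardiomyocytes from a promoter that the sources used here do not name. The Ang II dose was 1000 ng/kg/min, and hearts were collected at 21 days. The groups held 5 to 7 females and 6 or 7 males each.

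Myosin heavy chains are the motor of contraction. The adult mouse ventricle runs mainly on the fast α chain encoded by Myh6, while the slow β chain of Myh7 belongs to the fetal ventricle and returns under load. A pair of light chains is bound to each motor head: Myl3 is the essential and Myl2 the regulatory light chain of the ventricle, and Mylk3 is the kinase best known for phosphorylating Myl2. Myosin-binding protein C lies along the thick filament and restrains the heads, with Mybpc3 as the cardiac and Mybpc2 as the fast skeletal form. The 3 sarcomeric heavy chain genes also host microRNAs (miR-208a in Myh6, miR-208b in Myh7 and miR-499 in Myh7b) that are known as regulators of slow myosin genes.

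These microRNAs link the loci, so their mature strands are shown 5′ to 3′ from RefSeq (GRCm38.p6), with the seed (bases 2 to 8) in capitals.
miR-208b-3p: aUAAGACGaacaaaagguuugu
miR-208a-3p: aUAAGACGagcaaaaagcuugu
miR-499-5p: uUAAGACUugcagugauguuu
The miR-208a and miR-208b strands share a seed that no other of the 1679 mature entries carries. Counted from the 5′ end with miR-208a as the reference, they differ by G10A, A16G and C18U, all outside the seed. Between miR-208b and miR-499 1 seed base differs, G8U. The table has no mature microRNA: its Mir208b row is the 77-base hairpin (chromosome 14, 54975700 to 54975776, minus strand), printed here in full with the mature strand in capitals because it shows how short that row is.
Mir208b hairpin: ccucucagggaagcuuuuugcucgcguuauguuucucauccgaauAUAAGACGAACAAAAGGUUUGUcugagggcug
The row is counted from poly(A)-selected RNA and is no measure of the mature microRNA. Which longer transcript its fragments come from was not tested.

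Myh6 (ENSMUSG00000040752, chromosome 14, 54941921 to 54966641) and Myh7 (ENSMUSG00000053093, 54970684 to 54994626) lie 4042 bases apart on the minus strand. Positions are those of the table, of which 91.6% are identical in GENCODE release 21 for mouse (GRCm38). The Mir208b hairpin lies between exons 31 and 32 of the 41-exon Myh7 transcript, and Mir208a (54949060 to 54949142) between exons 29 and 30 of Myh6. Mhrt (54968678 to 54974349, plus strand), a long noncoding RNA of the adult heart, runs antisense over 3666 bases of Myh7's 3′ end and stops 1350 bases before Mir208b. Exons of both genes overlap over 463 bases. Library preparation kept the strand, but the strand setting of the counting is not given in the sources used here, so reads of Myh7, Mhrt and Mir208b cannot be told apart with certainty. The coding sequences of Myh6 and Myh7 are also much alike, and how fragments that fit both were assigned is not given.

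**Figure D1:**
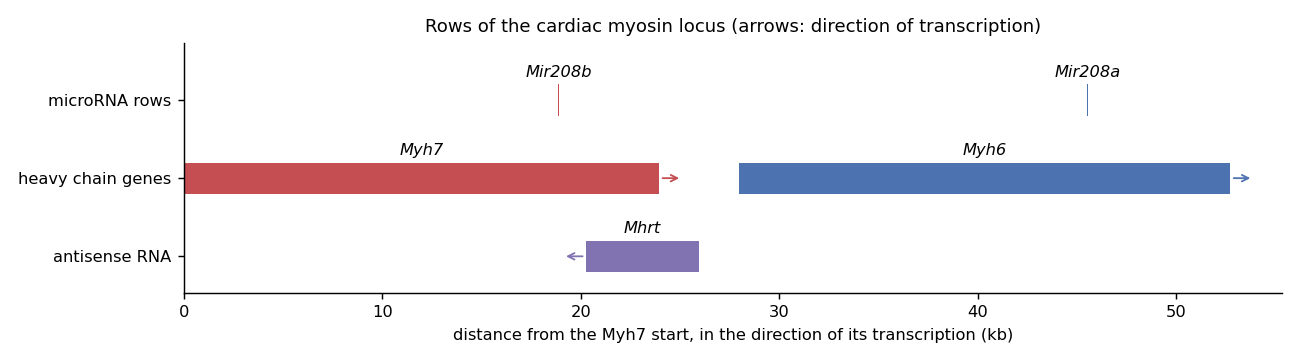
Map of the rows at the cardiac myosin locus; the horizontal axis is the distance in kb from the Myh7 start in the direction of its transcription, bars are the extents in the table and arrows give the direction of transcription. Mhrt runs against Myh7 over 3666 bases and ends before the Mir208b row.

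The promoters of the 2 main heavy chains, which moved in opposite directions, and of Mybpc2, which moved with Myh7, are given from RefSeq (GRCm38.p6, minus strand, 250 bases before to 50 after the annotated start). Capitals mark 2 motifs searched on both strands: the M-CAT core CATTCC, which TEAD factors are known to bind, and the TATA box TATAAA. The GATA site GATAA and the nuclear receptor half-site AGGTCA were searched as well. Neither occurs in the windows shown, while both occur in windows of other members. Of all RefSeq promoter windows, 25.4% and 16.3% hold them.
Myh6, chr14:54966558-54966857: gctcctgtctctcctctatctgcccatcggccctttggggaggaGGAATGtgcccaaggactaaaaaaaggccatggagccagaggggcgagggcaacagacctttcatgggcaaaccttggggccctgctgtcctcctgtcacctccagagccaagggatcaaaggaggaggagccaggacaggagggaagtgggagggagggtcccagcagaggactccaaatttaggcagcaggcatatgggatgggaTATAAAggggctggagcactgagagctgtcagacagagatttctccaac
Myh7, chr14:54994577-54994876: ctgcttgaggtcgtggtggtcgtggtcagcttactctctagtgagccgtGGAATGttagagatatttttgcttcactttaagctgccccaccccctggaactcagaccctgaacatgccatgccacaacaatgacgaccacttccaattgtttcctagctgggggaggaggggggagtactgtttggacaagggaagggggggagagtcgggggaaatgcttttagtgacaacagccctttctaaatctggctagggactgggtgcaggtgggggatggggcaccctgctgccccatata
Mybpc2, chr7:44524620-44524919: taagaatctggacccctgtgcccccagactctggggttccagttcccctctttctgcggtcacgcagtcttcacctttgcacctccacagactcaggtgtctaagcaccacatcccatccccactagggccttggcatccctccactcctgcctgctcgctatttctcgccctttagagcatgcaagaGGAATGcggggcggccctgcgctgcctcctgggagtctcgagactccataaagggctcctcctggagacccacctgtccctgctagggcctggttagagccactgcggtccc
All of them hold an M-CAT core on the opposite strand, 206 bases before the annotated start in Myh6, 201 in Myh7 and 62 in Mybpc2. Among the 9 members with a promoter in the table, 4 hold that core on either strand: those shown and Myl3, which was lower in Tg hearts. Mybpc3 and Mylk3, which like Myh7 were higher in Tg hearts under saline, hold no M-CAT core, so the windows shown are not typical of the members. The RefSeq starts used for Myl3, Myl2 and Mylk3 lie 21817, 7762 and 5304 bases from the gene start in the deposited data. For the other members with a promoter this distance is at most 34 bases, so the count mixes near and distant windows. Of all 32851 RefSeq promoter windows, 14.7% hold that core and 13.6% hold a TATA box. In the windows shown the TATA box letters occur only in Myh6, at bases 1 to 6 after the annotated start. Distances are from that start, whose place was not tested. A match is a string of letters and not a measured binding site.

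Total counts were 53877439 to 91579342 per library, so counting error is small for the protein-coding members. Levels below are FPKM divided by a scaling factor per library (0.776 to 1.14), called scaled FPKM. They are per length, so they can be compared between genes. Larp6 was at 443 to 1631 in all 25 Tg libraries and at 5.61 to 63.7 in 24 of the 25 WT libraries. Library 329 (replicate 8 of the WT Ang II group, a male), had 1004, within the Tg range, and the letters of its column name also differed from its label; it is written here as the library labelled WT. Library 847 (replicate 12 of Tg Ang II) has the same mismatch of letters, while its Larp6, 1119.5, lies in the Tg range. Both were kept under their labels, and many results that rest on them are also given without 1 or both of them. Cardiomyocyte markers summed to between 14522 and 18817 scaled FPKM in every library; the skeletal muscle heavy chains Myh1, Myh2 and Myh4 had medians of 0 in every group.

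The myosin heavy chain mRNA of Tg hearts was shifted from Myh6 to Myh7, already under saline. Myh7 ran from 123 to 199 scaled FPKM in WT saline (median 141; mean 153 ± 26, SD, n = 11). In Tg saline it ran from 309.9 to 879 (median 632; mean 650.3 ± 170.5, n = 12). Every Tg saline library lay above every WT saline library. Myh6 ran from 3118 to 4229 in WT saline (median 3628; 3661 ± 388) and from 2176 to 3389.8 in Tg saline (median 2857; 2842 ± 303). For Myh6 10 of the 12 Tg libraries lay below all WT libraries, so these groups overlapped. Tg minus WT, the log2 fold change was 2.06 ± 0.23 (SE) for Myh7 (edgeR quasi-likelihood test with Benjamini-Hochberg adjustment over all genes, adjusted p = 1.4e-09) and -0.37 ± 0.07 for Myh6 (adjusted p = 3.7e-05). Summed, the 2 chains came to 3814 ± 393 in WT saline and 3492 ± 321 in Tg saline, and Myh6 remained the more abundant chain in every library.

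Under Ang II, Myh7 ran from 125 to 933 in WT hearts (median 209.8; 275 ± 215, n = 14) and from 379 to 1252 in Tg hearts (median 612; 650.4 ± 227, n = 13). The WT maximum of 933 is library 329. Without libraries 329 and 847 the WT range ended at 554 and the mean was 225 ± 106 (n = 13). The genotypes differed by 1.23 ± 0.20 (edgeR adjusted p = 7.3e-06), or by 1.51 without library 329. Myh6 ran from 2007 (library 329) to 3961 in WT Ang II (median 3332; 3241 ± 489) and from 2153 to 3095 in Tg Ang II (median 2589.9; 2639 ± 252). The log2 fold change was -0.29 ± 0.07 (edgeR adjusted p = 4.6e-04), or -0.33 without library 329.

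Ang II raised Myh7 in WT hearts by 0.83 ± 0.22 on the log2 scale (edgeR adjusted p = 0.0054), or by 0.54 without libraries 329 and 847 (adjusted p = 0.024). In females alone it was 0.53 (adjusted p = 0.26) and in males alone 1.13 (adjusted p = 0.036), which became 0.56 (adjusted p = 0.11) in males without libraries 329 and 847. In Tg hearts the change was -0.01 ± 0.21 (adjusted p = 0.98), with a 95% interval from -0.43 to 0.40. The difference between these Ang II effects was -0.84 ± 0.30 and did not pass the test (edgeR adjusted p = 0.35; without libraries 329 and 847, -0.55 and 0.56), so a different response of Myh7 in the genotypes was not shown. Myh6 changed by -0.18 ± 0.07 with Ang II in WT hearts and just missed the threshold (edgeR adjusted p = 0.051; 0.036 with DESeq2), and it passed in 14 of 50 fits that left out 1 library. It was -0.14 without libraries 329 and 847 (edgeR adjusted p = 0.097) and -0.13 by library size alone (0.15). It changed by -0.10 ± 0.07 in Tg hearts (edgeR adjusted p = 0.38).

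**Figure D2:**
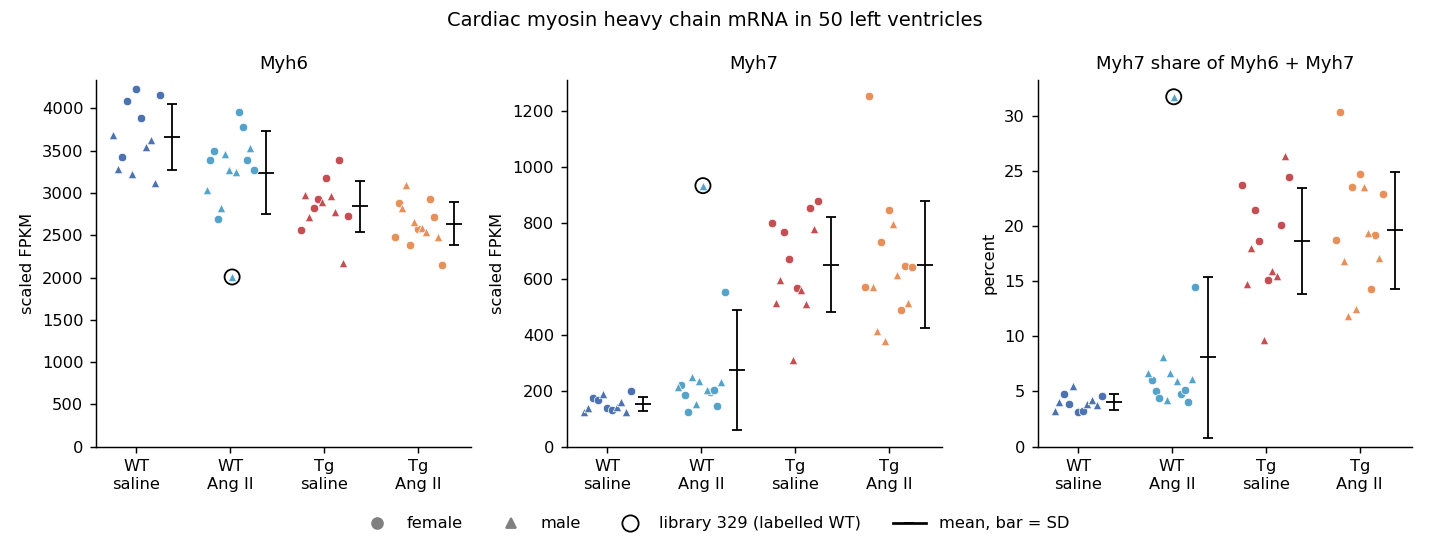
Myh6 and Myh7 levels (scaled FPKM) and the Myh7 percentage of their sum in each of 50 libraries; circles are females, triangles males, the black mark and bar are the mean and SD, and the ring is library 329. All Tg saline hearts lie above all WT saline hearts for Myh7 and its share, and the WT Ang II mean of Myh7 (275) drops to 225 without libraries 329 and 847.

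The ratio of both chains within a library does not depend on the scaling. Myh6 exceeded Myh7 by 24.5 ± 4.29 times in WT saline (lowest 17, median 24.7, highest 30.5) and by 15.6 ± 6.1 times in WT Ang II (2.15, 15.7 and 23.5). In Tg hearts the excess was 4.76 ± 1.77 times with saline (2.8, 4.47 and 9.34) and 4.48 ± 1.57 with Ang II (2.3, 4.22 and 7.49). As a share of both mRNAs, Myh7 made up 4.03 ± 0.722% in WT saline, 8.1 ± 7.28% in WT Ang II, 18.6 ± 4.81% in Tg saline and 19.6 ± 5.31% in Tg Ang II. Library 329 had a share of 31.7%, above every other library, and without libraries 329 and 847 WT Ang II stood at 6.29 ± 2.72%. The order of the groups was thus WT saline, WT Ang II, Tg saline, Tg Ang II, and the last pair did not differ beyond its spread.

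On the log2 scale the Myh7 to Myh6 ratio was 2.42 ± 0.16 (SE) higher in Tg than in WT hearts under saline, a 5.35-fold difference. By permutation (two-sided) p was 1e-05, which is the smallest these resamples can give, or 4.0e-05 after adjustment over the 4 comparisons. Under Ang II the genotypes differed by 1.69 ± 0.28, or 3.24-fold (permutation test, adjusted p = 6.0e-05), and by 1.92 without libraries 329 and 847. Ang II raised the ratio in WT hearts by 0.81 ± 0.26, or 1.76-fold (adjusted p = 0.0016), and by 0.61 without both libraries (adjusted p = 9.3e-04). In Tg hearts Ang II moved it by 0.09 ± 0.20 (adjusted p = 0.66). Within the sexes, the genotype difference under saline was 2.66 in females and 2.18 in males (exact permutation tests, adjusted p = 0.0043 and 0.0082). Under Ang II it was 2.18 in females and 1.18 in males (exact permutation tests, adjusted p = 0.0043 and 0.053), or 1.56 in males without libraries 329 and 847 (0.0043). The Ang II effect in WT hearts was 0.59 in females and 1.04 in males (exact permutation tests, adjusted p = 0.076 and 0.0082), or 0.64 in males without libraries 329 and 847 (exact permutation test, adjusted p = 0.0058). For the ratio, a difference between the sexes was not tested.

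Among the 25 Tg hearts, more Larp6 went with less of the shift. Within group and sex, the log2 Myh7 to Myh6 ratio correlated with the log2 Larp6 level at Pearson r = -0.62 (permutation p = 0.006) and Spearman rho = -0.58 (p = 0.0052). This was the only relation of Larp6 to these genes given a p, and it was chosen after other results were known. The lowest Larp6 level among these hearts, 443, is that of library 965 (Tg saline replicate 11). Its scaling factor, 0.776, is also the lowest of all libraries. Without the 2 libraries farthest from the median Larp6, r was -0.55, and over all single libraries left out r stayed between -0.68 and -0.47. Its sign was the same in females and males of both groups, at -0.83 in Tg saline females (n = 6), -0.66 in Tg saline males (n = 6), -0.58 in Tg Ang II females (n = 7) and -0.56 in Tg Ang II males (n = 6). With a term for clusters of neighbouring library numbers, it was -0.70. Taken apart, Larp6 correlated with Myh7 at -0.57 and with Myh6 at 0.39. Fragments of the transgene and of the mouse's own Larp6 are counted together, and the level is one of mRNA. The promoter of the transgene is not named in the sources used here, and the cause of this relation was not tested.

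Of the 10 members, 9 passed the test between the genotypes under saline, against 40.6% of all genes tested (20.4% higher and 20.2% lower). The median change over the members was -0.19, and over all genes tested 0.00. Myh7, Mybpc2, Mybpc3 and Mylk3 were higher and Myh6, Myh7b, Mir208b, Myl3 and Mylk4 lower in Tg hearts; Myl2 did not pass. Under Ang II 9 passed as well, against 32.8% of all genes (16.4% in each direction): Myh7, Mybpc2 and Mylk3 were higher, and Myh6, Myh7b, Mir208b, Myl2, Myl3 and Mylk4 lower. With Ang II 5 members changed in WT hearts, against 18.6% of all genes (9.71% higher and 8.87% lower): Myh7, Mybpc2 and Mybpc3 rose and Mir208b and Mylk4 fell. In Tg hearts 2 members changed, Mir208b and Mylk4, both lower, against 8.93% of all genes (4.88% higher and 4.04% lower). With so many genes called between the genotypes, a call alone does not set a member apart, and the sizes below carry more information. Each group serves in 2 of these 4 comparisons, so they are not independent.

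**Figure D3:**
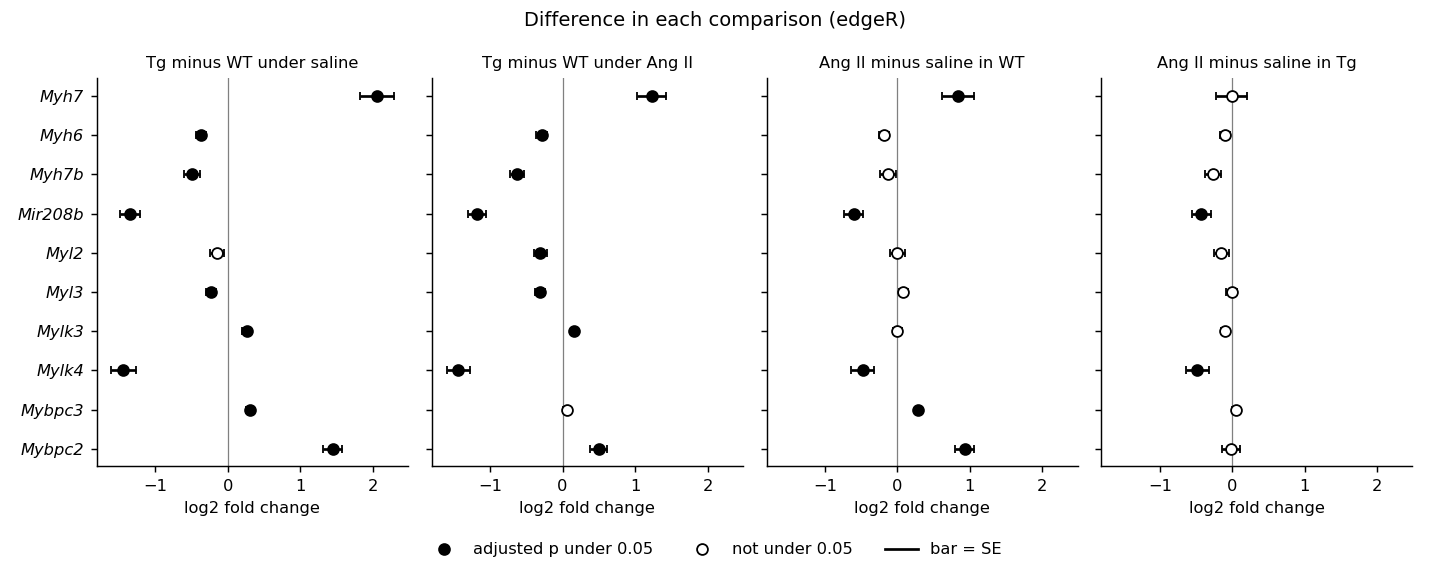
Log2 fold changes of the 10 members in 4 comparisons (edgeR); points are estimates, bars the SE, and filled points have an adjusted p under 0.05. Under saline Myh7, Mybpc2, Mylk4 and Mir208b show the widest differences between the genotypes, under Ang II Mybpc2 (0.50) lies nearer 0 than Myh7b (-0.63), and with Ang II in Tg hearts only Mir208b and Mylk4 are filled.

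The third heavy chain, Myh7b, a slow-type myosin whose transcript hosts miR-499, was lower in Tg hearts. It was at 14.8 to 21.4 scaled FPKM in WT saline (median 17.9) and at 10.1 to 16.9 in Tg saline (median 12.6), a change of -0.49 ± 0.11 (edgeR adjusted p = 4.2e-04). Under Ang II the ranges were 11.2 to 23.4 (median 15.9) in WT and 5.97 to 14.4 (median 11.4) in Tg, a change of -0.63 ± 0.10 (adjusted p = 6.1e-06). These groups overlapped in part. Ang II changed it by -0.13 in WT and -0.27 in Tg hearts (adjusted p = 0.43 and 0.11). The Mir499 row had 0 to 4 counts per library and was not tested.

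The Mir208b row moved against its host gene. It held 259 to 710.0 counts in WT saline (median 323), 113 to 348 in WT Ang II (270.0), 70 to 229 in Tg saline (144) and 92 to 173 in Tg Ang II (118). In scaled FPKM, all 12 Tg saline libraries (16.3 to 35.7) lay below all WT saline libraries (53.1 to 101). Under Ang II all Tg libraries (14.5 to 25.3) lay below all WT libraries other than 329, which ran from 33.2 to 59.5, while 329 stood at 15.3. The genotypes differed by -1.35 ± 0.14 under saline (edgeR adjusted p = 1.4e-10) and by -1.18 ± 0.13 under Ang II (adjusted p = 2.0e-09), while Myh7, which surrounds the row, rose in both. Without library 329 the difference of the row under Ang II was -1.26. Ang II lowered the row by 0.60 on the log2 scale in WT hearts (-0.60 ± 0.13, adjusted p = 9.3e-04) and by 0.43 in Tg hearts (-0.43 ± 0.13, adjusted p = 0.035). The Tg call was lost in 9 of 50 fits that left out 1 library, with no filter on low values (-0.42, adjusted p = 0.088) and with a term for clusters of library numbers (-0.41, adjusted p = 0.12). For every count of the Mir208b row there were 261 ± 60.5 Myh7 counts in WT saline and 3019 ± 1323 in Tg saline.

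Mhrt, which is known to antagonise the chromatin remodeller Brg1, differed from the Mir208b row between the genotypes but, like that row, fell with Ang II in WT hearts. It ran from 43.3 to 79.8 scaled FPKM in WT saline (median 53), from 28 to 52.3 in WT Ang II (44.3), from 37.5 to 114 in Tg saline (68.2) and from 46.4 to 71.3 in Tg Ang II (59.9). Ang II lowered it in WT hearts (-0.45 ± 0.10, edgeR adjusted p = 6.9e-04), and under Ang II it was higher in Tg than in WT hearts (0.49 ± 0.09, adjusted p = 4.4e-05). Under saline the genotypes differed by 0.22 ± 0.10 (adjusted p = 0.067). With library size as the only scaling this became 0.36 (adjusted p = 0.0015), a scaling under which the median of all genes shifted by 0.14 in this comparison. Males had less Mhrt than females over all groups (-0.24 ± 0.07, adjusted p = 0.033; without Tg saline replicate 7, -0.20 and 0.058). The saline groups had means of 69.9 in females and 48.8 in males of WT and 77.4 and 59.9 of Tg. Under Ang II the means were 43.2 and 42.2 in WT and 60.3 and 59.5 in Tg. The change of the Ang II effect with sex, 0.42, had p = 0.0031 but did not pass after adjustment (edgeR adjusted p = 1). Mir208a, the row in Myh6 with a median of 14.5 to 24 counts by group, was lower in Tg than in WT saline (-0.78 ± 0.20, adjusted p = 0.0018) and fell with Ang II in WT hearts (-0.70 ± 0.19, adjusted p = 0.0087). Its genotype difference under Ang II (-0.38) and its change with Ang II in Tg hearts (-0.29) did not pass (edgeR adjusted p = 0.13 and 0.41).

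The ratio of the Mir208b row to Mhrt was lower in Tg hearts. The Mir208b to Mhrt ratio of scaled FPKM was 1.15 ± 0.0724 in WT saline (1.06 to 1.27) and 0.391 ± 0.0726 in Tg saline (0.313 to 0.531). Under Ang II it was 1.05 ± 0.233 in WT (0.335 to 1.31) and 0.325 ± 0.0439 in Tg hearts (0.244 to 0.387). Library 329, at 0.335, lay among the Tg libraries. Without libraries 329 and 847 the lowest WT value was 0.929 and the highest Tg value 0.531. This ratio was formed after the values were seen and is given as a description. Whether fragments of one strand were counted in rows of the other was not tested, since the files hold counts only.

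Of the light chains, Myl3 was lower in Tg hearts under saline and under Ang II, and Myl2 was lower under Ang II. Myl3 ran from 1214 to 1563 scaled FPKM in WT saline (median 1444) and from 975 to 1695 in Tg saline (median 1123), a change of -0.23 ± 0.07 (edgeR adjusted p = 0.0078). With library size as the only scaling this was -0.10 and did not pass (adjusted p = 0.21). Under Ang II the change was -0.31 ± 0.07 (adjusted p = 1.8e-04). Myl2 ran from 1898 to 2982 in WT saline (median 2144) and from 1541 to 3639 in Tg saline (median 1878), a change of -0.15 ± 0.10 (adjusted p = 0.23). The Tg maximum is replicate 11 (library 965), which also had the lowest scaling factor of all libraries (0.776). Without this library the change was -0.26 and passed (edgeR adjusted p = 0.012). Under Ang II Myl2 was lower in Tg hearts by 0.31 on the log2 scale (-0.31 ± 0.09, adjusted p = 0.0084). Neither light chain passed the test for Ang II in either genotype, with changes of 0.00 and -0.15 for Myl2 and 0.08 and -0.01 for Myl3 in WT and Tg. Both are abundant mRNAs, at a level of the same order as Myh6.

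The kinases went in opposite directions. Mylk4, a muscle kinase of the myosin light chain kinase family, ran from 14.3 to 34.2 scaled FPKM in WT saline (median 23.4) and from 6.72 to 12.8 in Tg saline (median 8.93), with no overlap. In WT Ang II it ran from 6.3 (library 329) to 29.2 (median 17.3), and in Tg Ang II from 4.13 to 9.3 (median 6.33); without libraries 329 and 847 these did not overlap either. Tg hearts differed from WT hearts by -1.44 ± 0.17 on the log2 scale under saline (edgeR adjusted p = 3.0e-09) and -1.44 ± 0.16 under Ang II (adjusted p = 1.9e-09), or -1.51 without library 329. Ordered by log2 fold change under Ang II, it ranked 8 from the lowest among 11628 genes. Ang II lowered Mylk4 by 0.48 on the log2 scale in both WT hearts (-0.48 ± 0.16, adjusted p = 0.029) and Tg hearts (-0.48 ± 0.16, adjusted p = 0.048). Leaving out 1 library ended the first in 4 and the second in 28 of 50 fits. Without library 329 the change in WT hearts was -0.4. The difference of both effects had a 95% interval from -0.44 to 0.44.

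Mylk3, the cardiac myosin light chain kinase, was slightly higher in Tg hearts. It ran from 60.9 to 82.8 in WT saline (median 72.1) and from 70.7 to 93.4 in Tg saline (median 87.6), a change of 0.26 ± 0.06 (edgeR adjusted p = 4.4e-04). Under Ang II the change was 0.16 ± 0.05 (adjusted p = 0.021), and without libraries 329 and 847 it was 0.14 and just missed the threshold (adjusted p = 0.0503), as it did without Tg Ang II replicate 8 (0.13, adjusted p = 0.06). With the cluster term it was 0.11 (adjusted p = 0.15). In WT hearts Ang II changed it by 0.00 ± 0.06 (adjusted p = 0.97) and in Tg hearts by -0.10 ± 0.06 (adjusted p = 0.31).

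Mybpc2, the fast skeletal form of myosin-binding protein C, was the member whose Ang II response differed between the genotypes. It is a low mRNA here: 2.73 to 6.53 scaled FPKM in WT saline (median 3.49), 4.14 to 11.6 in WT Ang II (6.96), 8.11 to 12.9 in Tg saline (10.4) and 6.98 to 13.6 in Tg Ang II (9.88). All Tg saline libraries lay above all WT saline libraries, and both Tg groups covered nearly the same range. The genotypes differed by 1.45 ± 0.13 under saline (edgeR adjusted p = 1.0e-11) and by 0.50 ± 0.12 under Ang II (adjusted p = 7.5e-04). Ang II raised it in WT hearts by 0.93 ± 0.13 (adjusted p = 1.2e-06), a 1.91-fold rise, and moved it by -0.02 ± 0.12 in Tg hearts (adjusted p = 0.95). The difference between the Ang II effects was -0.95 ± 0.17 (edgeR adjusted p = 0.011). Only 5 of 11628 genes (0.043%) passed this test, 4 of them with a lower (0.0344%) and 1 with a higher effect in Tg hearts (0.0086%), and Mybpc2 had the second smallest p among them. With each library left out in turn it stayed between -1.03 and -0.87 and kept its call. It was -0.85 without libraries 329 and 847 (adjusted p = 0.035), -1.15 in females alone (0.0045) and -0.75 in males alone (0.34), or -0.56 in males without both libraries (0.54). It missed the threshold with limma on log2(FPKM + 1), at -0.79 (0.057), and with a term for clusters of library numbers, at -0.81 (0.21).

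Mybpc3, the cardiac form, is far more abundant and had a similar but smaller pattern. Its medians were 639 in WT saline (573 to 743), 762 in WT Ang II (699 to 969.9), 811 in Tg saline (651 to 877) and 814 in Tg Ang II (707 to 1023). For 11 of 12 Tg saline libraries the level lay above all WT saline libraries. It was 0.31 ± 0.06 higher in Tg hearts under saline (edgeR adjusted p = 2.4e-05) and 0.29 ± 0.05 higher with Ang II in WT hearts (adjusted p = 1.7e-04). Between the genotypes under Ang II it differed by 0.06 (adjusted p = 0.38), and with Ang II in Tg hearts by 0.05 (adjusted p = 0.67). The difference between its Ang II effects, -0.24 ± 0.08, did not pass (adjusted p = 0.25). Against the summed heavy chains, Mybpc3 stood at 0.171 ± 0.0237 in WT saline, 0.226 ± 0.0286 in WT Ang II, 0.229 ± 0.0211 in Tg saline and 0.25 ± 0.0125 in Tg Ang II.

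**Figure D4:**
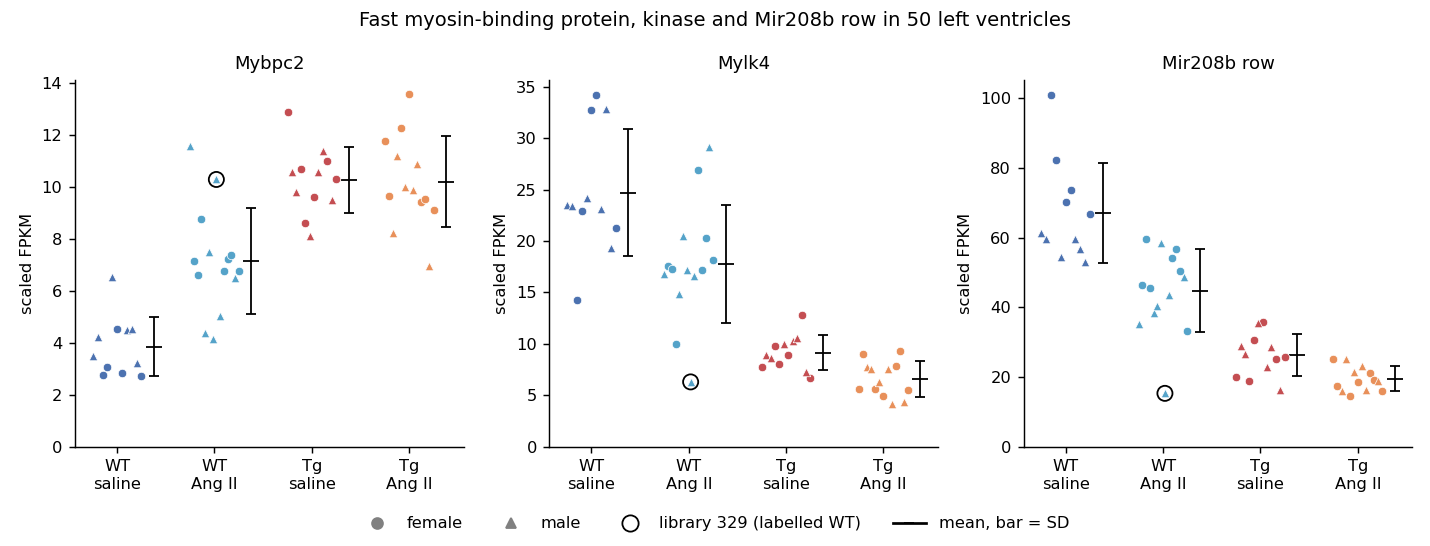
Scaled FPKM of Mybpc2, Mylk4 and the Mir208b row in each of 50 libraries; circles are females, triangles males, the black mark and bar are the mean and SD, and the ring is library 329. Mybpc2 covers nearly the same range in both Tg groups, and Mylk4 and Mir208b of library 329 lie at 6.3 and 15.3, among the Tg libraries.

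In all, 4 members (Myh7, Mybpc2, Mir208b and Mylk4) did not overlap between WT and Tg hearts under saline, as was the case for 4.08% of all genes tested. Under Ang II Mir208b and Mylk4 did not overlap without libraries 329 and 847 (1.16% of all genes). No member differed between males and females at an adjusted p under 0.05 in edgeR, against 4.42% of all genes (2.56% higher and 1.86% lower in males); 1 member, Myh6, had an unadjusted p under 0.05 (-0.10, p = 0.036). DESeq2 also called none, while limma on log2(FPKM + 1) called 1. No member's genotype or Ang II effect differed between the sexes in edgeR or DESeq2, where edgeR called none of all genes and DESeq2 called 2 in each test. At an unadjusted p under 0.05, 2 members' genotype effects differed between the sexes: Myh7 (-0.60 in males relative to females, p = 0.049) and Mir208b (0.44, p = 0.022). Without libraries 329 and 847 these were -0.31 (p = 0.2) and 0.38 (p = 0.023).

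Within groups some of the members moved together. Residuals of log2(scaled FPKM + 1) from the means of group and sex were correlated over 50 libraries for 55 pairs of the members and Mhrt. Permutation p-values were adjusted over the pairs, and 11 pairs had an adjusted p of Pearson's r under 0.05. How many pairs of other genes would pass was not tested, so this count does not set the members apart. Myl2 and Myl3 had r = 0.90 and rho = 0.87 (adjusted p = 2.7e-04 and 1.8e-04), and r = 0.88 without the 2 farthest libraries. Myh6 and Mylk4 had r = 0.81 and rho = 0.72 (adjusted p = 2.7e-04 and 1.8e-04), or 0.70 without the 2 farthest. Mir208b and Mhrt had r = 0.59 and rho = 0.70 (adjusted p = 0.0038 and 1.8e-04), or 0.75 without the 2 farthest. Mir208b went against Myh7, with r = -0.67 and rho = -0.49 (adjusted p = 0.0023 and 0.0052), or -0.42 without the 2 farthest, and with Myh6, with r = 0.63 and rho = 0.50 (adjusted p = 0.0047 and 0.0052), or 0.48. A further 3 pairs joined Mylk3, Mybpc3 and Myh7. Mylk3 and Mybpc3 had r = 0.58 and rho = 0.58 (adjusted p = 3.7e-04 and 6.9e-04), or 0.51 without the 2 farthest. Myh7 had r = 0.53 and rho = 0.45 with Mylk3 (adjusted p = 0.0015 and 0.0093), or 0.55, and r = 0.54 and rho = 0.52 with Mybpc3 (adjusted p = 0.0042 and 0.0023), or 0.59. Myh7b went with Myl3 (r = 0.47, rho = 0.43, adjusted p = 0.02 and 0.03, or 0.38) and Myl2 (r = 0.42, rho = 0.42, adjusted p = 0.031 and 0.032, or 0.35) and against Mylk3 (r = -0.46, rho = -0.51, adjusted p = 0.034 and 0.0046, or -0.46). Myh6 and Myh7 themselves did not pass, at r = -0.42 and rho = -0.29 (adjusted p = 0.11 and 0.13). With a term for the 10 clusters of library numbers, r was 0.88 for the light chains, 0.78 for Myh6 and Mylk4, 0.55 for Mir208b and Mhrt, and -0.76 for Myh7 and Mir208b. Without libraries 329 and 847, r was 0.91 for the light chains, 0.72 for Myh6 and Mylk4, and 0.83 for Mir208b and Mhrt. It was then -0.47 for Myh7 and Mir208b, 0.43 for Myh6 and Mir208b, and -0.12 for Myh6 and Myh7. For Mylk3 and Mybpc3 it was 0.61, for Myh7 with Mylk3 0.69 and for Myh7 with Mybpc3 0.68. For Myh7b it was 0.42 with Myl3, 0.44 with Myl2 and -0.45 with Mylk3.

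**Figure D5:**
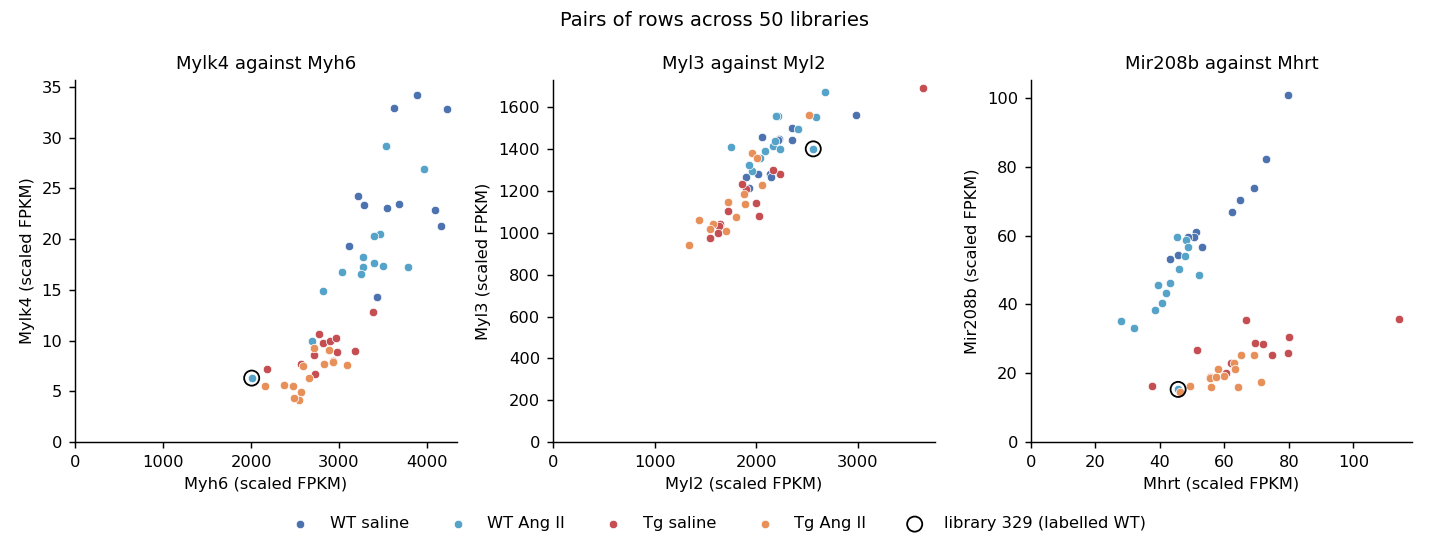
Scaled FPKM of Mylk4 against Myh6, Myl3 against Myl2 and Mir208b against Mhrt in 50 libraries coloured by group, with library 329 ringed. Mir208b and Mhrt lie on separate lines for WT and Tg hearts, and library 329, at a ratio of 0.335, lies on the Tg line.

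Over 4474 genes with a mean of at least 5 scaled FPKM, the residuals most like those of Myh7 were Micu2 (r = 0.84), a regulator of mitochondrial calcium uptake, Perp (0.78), a desmosome-associated membrane protein, and Nppa (0.76), the atrial natriuretic peptide. Those most like Myh6 were Slc25a12 (0.83), the mitochondrial aspartate-glutamate carrier, Cs (0.82), citrate synthase, and Atp2a2 (0.81), which pumps calcium into the sarcoplasmic reticulum. For Mylk4 they were Myh6 (0.81), Ptpn3 and Fech (both 0.79), and for Mybpc2 Myo9b (0.67), Dnaja4 and P2rx5 (both 0.62). These are descriptions over 50 libraries from the same tissue. Without libraries 329 and 847 the values were 0.74, 0.65 and 0.70 for the genes named with Myh7 and 0.88, 0.81 and 0.77 for those named with Myh6. They were 0.72 (Myh6), 0.80 (Ptpn3) and 0.82 (Fech) for Mylk4, and 0.66, 0.58 and 0.52 for Mybpc2.

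Of the other myosin II heavy chains, 4 of 11 were expressed enough to test, all of them nonmuscle or smooth muscle forms. Under saline Myh14 (0.37 ± 0.07) and Myh10 (0.32 ± 0.08), nonmuscle chains, were higher and Myh11, the smooth muscle chain, lower (-0.35 ± 0.09) in Tg hearts (edgeR adjusted p = 6.2e-05, 0.0015 and 0.0024); Myh9 was at -0.07 (0.63). Of all genes, 20.4% were higher and 20.2% lower under saline. Under Ang II 2 of these chains were higher (16.4% of all genes), and with Ang II in WT hearts 1 was, Myh10 (0.29, with 9.71% of all genes higher). Of 10 other light chains 6 were tested and 3 were higher in Tg saline hearts, against 20.4% of all genes. They were Myl12a (0.60 ± 0.06, edgeR adjusted p = 4.3e-11), the nonmuscle regulatory chain, Myl1 (0.75 ± 0.14), the fast skeletal essential chain, and Myl6 (0.28 ± 0.10, 0.026), the nonmuscle essential chain. Myl1 ran from 6.1 to 12.3 scaled FPKM in WT saline (median 8.98) and from 12.6 to 27.4 in WT Ang II (median 16.2). Its change with Ang II was 0.91 ± 0.14 (edgeR adjusted p = 1.1e-05). Myl12a rose by 0.46 ± 0.06 with Ang II in WT hearts (edgeR adjusted p = 2.3e-07). The atrial light chains Myl4 and Myl7 had medians under 1 scaled FPKM in every group, as did Mylpf, the fast skeletal regulatory chain.

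Of 8 other kinase and phosphatase genes, 7 were tested, with 2 higher and 1 lower in Tg saline hearts, a share near the 40.6% of all genes. Mylk, the smooth muscle kinase, was lower (-0.39 ± 0.08, edgeR adjusted p = 1.9e-04), while Ppp1r12c (0.25) and Ppp1r12a (0.17), which target the myosin phosphatase to its substrate, were higher. Under Ang II 3 were higher and 1 lower in Tg hearts, against 16.4% of all genes in each direction. Of 7 other myosin-binding and M-band genes 3 were tested, and none passed between the genotypes. Of all genes, 40.6% passed under saline and 32.8% under Ang II. At an unadjusted p under 0.05 edgeR gave Myom2 (0.23, adjusted p = 0.053) under saline. Myom1, the M-band protein myomesin, rose with Ang II in WT (0.35 ± 0.05, edgeR adjusted p = 4.1e-06) and in Tg hearts (0.27 ± 0.05, adjusted p = 5.8e-04). Of 6 genes of myosin folding, Hsp90aa1, an HSP90 chaperone, was 0.94 ± 0.11 higher in Tg saline hearts (edgeR adjusted p = 2.6e-09). Smyd1 (-0.23), which assists myosin assembly, and Unc45a (-0.18) were lower. With library size as the only scaling the changes of Smyd1 and Unc45a no longer passed (-0.09 and -0.04).

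Of 22 genes named as regulators of the switch between Myh6 and Myh7, 19 were tested. Under saline 4 were higher and 6 lower in Tg hearts, a median of -0.07 over the tested genes; 40.6% of all genes were called there, 20.4% higher and 20.2% lower. Dio2, which activates thyroid hormone, was 2.18 ± 0.33 higher (edgeR adjusted p = 1.0e-06), but at a median of only 0.139 scaled FPKM in WT saline and 0.619 in Tg saline. With both medians under 1, Dio2 entered the test only through its highest libraries. Its changes here and below are therefore descriptions. Rxrg, a partner of the thyroid hormone receptors, was lower (-0.54 ± 0.08, adjusted p = 5.5e-07), as was Mef2a (-0.29 ± 0.05), and Gata4 was higher (0.28 ± 0.07); both of these are transcription factors of the heart muscle cell. Under Ang II 4 were higher and 3 lower in Tg hearts, near the 32.8% of all genes, with Rxrg at -0.41 and Dio2 at 1.28. With Ang II in WT hearts 2 were higher, Dio2 (1.78 ± 0.32, adjusted p = 1.1e-04) and Purb (0.19 ± 0.04, 0.0011), and 7 lower, among them Rxrg (-0.31) and Mef2a (-0.19). Of all genes, 9.71% were higher and 8.87% lower there. In Tg hearts 2 of the 19 were higher with Ang II, Purb (0.20), a repressor of Myh6, and Dio2 (0.89). Another 2 were lower, Rxra (-0.22) and Thra (-0.21), the thyroid hormone receptor α. For this comparison 4.88% of all genes were higher and 4.04% lower.

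Marker mRNAs of other cell types moved with genotype. Under saline all 10 fibroblast markers were higher in Tg hearts, as were 8 of 9 tested macrophage markers, and 8 of 10 endothelial markers were lower. Of all genes tested, 20.4% were higher and 20.2% lower there. Summed fibroblast markers ran from 387 to 513 scaled FPKM in WT saline and from 499 to 781 in Tg saline, macrophage markers from 99.9 to 129 and from 152 to 426, and endothelial markers from 177 to 323 and from 143 to 230.0. Of 10 cardiomyocyte markers 1 was higher (Actn2, 0.13) and 5 lower (the furthest Ckmt2, -0.35), with sums of 15493 to 18089.6 in WT saline and 14522 to 17929 in Tg saline. Under Ang II 7 fibroblast and 6 macrophage markers were higher and 8 endothelial markers lower in Tg hearts, against 16.4% of all genes in each direction. With Ang II in WT hearts 4 fibroblast markers were higher and 1 lower, and 1 macrophage marker was higher. Of all genes, 9.71% were higher and 8.87% lower there. In Tg hearts Ang II went with 1 higher and 4 lower fibroblast markers, against 4.88% of all genes higher and 4.04% lower. Of 8 tested smooth muscle and mural markers, 2 were higher and 5 lower in Tg saline hearts, and 2 of 3 tested atrial markers were higher. The shares of all genes there were again 20.4% higher and 20.2% lower. Summed atrial markers, mostly Nppa, ran from 95.7 to 209 scaled FPKM in WT saline, 199 to 1478 in WT Ang II, 519.6 to 2076 in Tg saline and 681 to 2949 in Tg Ang II, while the atrial light chains Myl4 and Myl7 stayed under 1 in every library. The part of these marker levels in the members' differences was not tested, and in tissue fewer cells of a type and less RNA per cell cannot be told apart. For Mybpc2 and Myl1, genes of fast skeletal muscle, the other defining markers of that tissue were at or near 0: Myh1, Myh2, Myh4 and Actn3 stayed under 1 scaled FPKM in every library, and among the 12 markers only Myl1 passed the filter. Their sum, mostly Myl1, ran from 6.92 to 13.9 in WT saline, 13.1 to 28.3 in WT Ang II, 9.45 to 21.8 in Tg saline and 15.6 to 38.8 in Tg Ang II.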

How the data were processed

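The deposited table gave a count and an FPKM per gene and library, the latter scaled by the authors to transcript length and library. Per the submitters' processing notes the tools were cutadapt 1.9, FastQC, HISAT2 2.0.4 and StringTie 1.3.4d; per the labels' protocols poly(A) RNA was made into dUTP libraries. The counting tool, strand setting, build and annotation are not given in the sources used here. Counts deposited by the authors were whole and used as such.

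Counts were fitted with edgeR 4.0.16 in R 4.3.3 (quasi-likelihood test, median-of-ratios scaling, 1 mean per genotype, infusion and sex, sexes weighted equally) over 11628 genes that reached FPKM 1 in 5 or more libraries. P values were adjusted by Benjamini-Hochberg over all of them, and genes called under 0.05. The script was tested on simulated data. Ratios and correlations used 1e+05 resamples, exact tests within a sex. Each library was taken as 1 mouse; where that fails, p-values measure technical spread. Alternatives used TMM or library size, no filter, DESeq2 1.42.0, limma 3.58.1 with a pseudocount of 1 or 0.1, sex as a term, library-number clusters (a gap over 20 starts a new one), each sex alone and libraries left out. Members and lists were chosen with earlier results of these data known. Named were all members, the RNAs of their loci, up to 4 genes per list with the smallest p in a comparison, and the 3 genes most like Myh7, Myh6, Mylk4 and Mybpc2.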

Additional observations from a re-analysis of the deposited data

Results flagged for a closer look

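The Ang II effect on Mybpc2 differed between Tg and WT hearts by -0.95 ± 0.17 on the log2 scale (edgeR, adjusted p = 0.011). That test of a difference between groups was passed by no other member. As given above, Mybpc2 missed the threshold with limma on log2(FPKM + 1), with a term for clusters of library numbers and in males alone. In WT hearts the level went from a median of 3.49 to 6.96 scaled FPKM with Ang II, and in Tg hearts from 10.4 to 9.88. Both Tg groups lay above the WT saline group, whose highest library was at 6.53.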

How the results depend on the processing

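No paired analysis was possible because each library carries its own number and no number is shared between groups. With library size as the only scaling the median of all genes rose by 0.14 under saline between the genotypes, and 84.1% of the called genes were higher, against 50.3%. Under Ang II 78.4% and with Ang II in WT hearts 80.6% were then higher. TMM scaling and sex as a term changed the call and direction of no member's result. The cause of the changes below was not tested, except that each sex alone holds fewer mice.

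Genes called between the genotypes under saline were 3050 in females alone and 2133 in males alone. Under Ang II they were 2156 and 1983 (5 members in males), and with Ang II in WT hearts 657 (3 members) and 599 (2 members). With Ang II in Tg hearts, 634 genes were called without a filter, 598 with the cluster term, 7 in females and 521 in males. Of the members, 1 was called there with the cluster term, and 0 without a filter, with limma at either pseudocount, in females or in males. For the difference of the Ang II effects, genes called were 8 by library size, 2 without a filter, 40 by DESeq2, 1 and 2 by limma with a pseudocount of 1 and 0.1, 0 with the cluster term, 3 without libraries 329 and 847, and 1 in each sex alone. Members called there were 0 with limma at a pseudocount of 1, with the cluster term and in males. Between the sexes 1223 genes and 1 member were called by library size, 1303 and 1286 genes and 1 member each by limma, and 321 genes with the cluster term. In males without libraries 329 and 847, a setting added after the data were seen, genes called were 2236 and 2060 between the genotypes under saline and Ang II (5 members in the latter), 240 and 431 with Ang II in WT and Tg hearts (0 members in both), and 0 for the difference of the effects (0 members). There Mylk3 in WT hearts was at -0.07, and Myh7, Mybpc2 and Mhrt in Tg hearts at 0.02, 0.01 and 0.00. DESeq2 called 2 genes in each test of a sex difference in effect. The log2 Myh7 to Myh6 ratio differed between the genotypes under Ang II by 1.18 in males, and with Ang II in WT hearts by 0.59 in females.

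Changes that turned direction were not called under any of these settings. With Ang II in WT hearts, Myl2 was at -0.02 without libraries 329 and 847 and -0.05 in females, and Mylk3 at -0.07 in males. With Ang II in Tg hearts, Myh7 was at 0.00 by library size, 0.01 by limma at both pseudocounts, 0.11 with the cluster term and 0.01 in males, and Myl2 at 0.05 in females. Myl3 was there at 0.01 by library size, 0.00 without a filter, 0.04 by limma at both pseudocounts, 0.02 with the cluster term, 0.02 without libraries 329 and 847 and 0.11 in females. Mybpc2 was there at 0.02 by limma at both pseudocounts, 0.04 with the cluster term, 0.02 without libraries 329 and 847 and 0.03 in females.

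With each library left out in turn, genes called ranged from 4355 to 4785 between the genotypes under saline, 3412 to 4097 under Ang II, 1789 to 2382 with Ang II in WT hearts, 656 (without Tg Ang II replicate 9) to 1128 in Tg hearts, 2 to 21 (without WT saline replicate 3) for the difference of these effects, and 382 to 629 between the sexes. Members called ranged from 9 to 10, 8 to 9, 4 to 6, 0 to 3 and 1 to 1. The log2 ratio ranged from 2.36 to 2.52, 1.62 to 1.9, 0.61 to 0.87 and -0.01 (without Tg saline replicate 6) to 0.16. With Ang II in WT hearts Myl2 ranged from -0.02 to 0.06 and Mylk3 from -0.03 to 0.03, and in Tg hearts Myh7 from -0.1 to 0.05, Myl3 from -0.05 to 0.04 and Mybpc2 from -0.05 to 0.02.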
